A study of Mus with 8 samples.

Results

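Acyl-CoA synthetases are the enzymes that join a fatty acid to coenzyme A, the step that commits it to oxidation, to storage as triglyceride or to membrane lipids. A set of 6 of their genes was followed here, chosen by name: the long-chain enzymes Acsl1, Acsl3, Acsl4, Acsl5 and Acsl6, and Slc27a2, a fatty acid transport protein that is also a very-long-chain acyl-CoA synthetase. A gene was read from a probe set annotated with that gene alone, and from the one with the highest mean over all arrays where there was more than 1. By this rule 4 of the 6 were measured (Acsl4, Acsl5, Acsl6 and Slc27a2), among 30426 genes in all. Of the other 2, Acsl3 had a probe set shared with another gene, and Acsl1 was assigned to no probe set in the annotation used and was not analysed here.

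The tissue was interscapular brown fat of C57BL/6 mice, 4 labelled as Hilpda KO and 4 as wild type (WT), with 1 array of total RNA per mouse. Hilpda encodes a small lipid droplet protein that inhibits Pnpla2, the first lipase of triglyceride breakdown. The labels give neither the kind of deletion (whole body or one cell type) nor an age or a treatment. The arrays form 2 sets, replicates 1 and 2 and replicates 3 and 4 of both groups, which differ in scale: the median of the named genes was 3.93 to 3.99 log2 units in the first and 4.92 to 4.97 in the second. Each comparison below is therefore KO minus WT within a set, or over both sets with the set as a term, and levels are not compared between sets.

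In brown adipocytes, fatty acids are the main fuel of heat production, and their acyl-CoA forms are carried into mitochondria through carnitine palmitoyltransferase. ACSL1 is known as the principal long-chain synthetase of this tissue, ACSL3 is found on forming lipid droplets, and ACSL4 prefers arachidonic acid and other polyunsaturated fatty acids. ACSL5 is bound to the endoplasmic reticulum and outer mitochondrial membrane and is best known from intestine and liver. ACSL6 is mainly an enzyme of brain, and SLC27A2 (also called FATP2) is best known from liver and kidney.

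The targeted gene was read first. Hilpda had log2 values of 4.45, 4.37, 5.60 and 5.51 in KO replicates 1 to 4, against 4.37, 4.28, 6.00 and 5.92 in WT replicates 1 to 4. The KO values lay below both WT values in replicates 3 and 4 alone. The difference there was -0.40 (SE 0.10, limma adjusted p = 0.145), against 0.09 (SE 0.10, limma adjusted p = 0.974) in replicates 1 and 2. Whether the probes of Hilpda sit inside the deleted stretch is not stated by the labels, so directions below are those of the arrays labelled KO.

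Markers of other tissues varied between arrays. Of 16 liver markers, all 16 were above the background level on each array of replicates 1 and 2, against 2 or 3 on each array of replicates 3 and 4. The background level was the 95th percentile of 1082 olfactory receptor genes. The mean liver marker value was 12.05 and 8.66 in KO replicates 1 and 2, against 8.31 and 6.38 in WT replicates 1 and 2. It was 4.89 and 5.03 in KO replicates 3 and 4, against 4.92 and 4.81 in WT replicates 3 and 4. Skeletal muscle markers (18 genes) averaged 6.10, 8.92, 5.59 and 10.40 in KO replicates 1 to 4, against 7.95, 7.41, 10.77 and 9.03 in WT. Muscle markers were thus lowest in KO replicates 1 and 3, and the groups overlapped in both sets. All 12 brown adipocyte markers were above background on all arrays, and the thermogenic uncoupling protein gene Ucp1 read 19.68 to 19.93, near the top of the scale. The labels call the mice female, but the Y-linked gene Uty read 9.31 to 10.93 and Xist, transcribed from the inactive X chromosome, 3.49 to 4.10 on the 8 arrays.

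**Figure D1:**
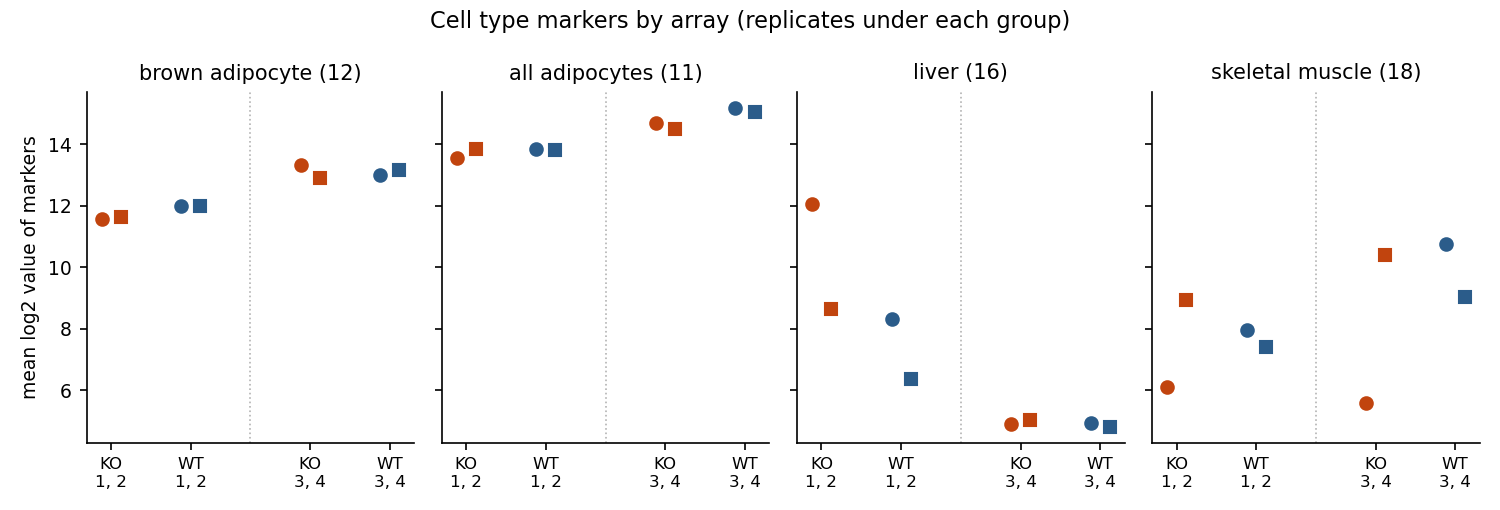
Mean log2 value of the markers of brown adipocytes (12 genes), all adipocytes (11), liver (16) and skeletal muscle (18) on each array, KO in orange and WT in blue, circles for replicates 1 and 3 and squares for replicates 2 and 4. Liver markers reached 12.05 in KO replicate 1 and stayed between 4.81 and 5.03 in replicates 3 and 4, while muscle markers ranged from 5.59 to 10.77.

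The comparison of KO with WT asked whether the genes that activate fatty acids differ when Hilpda is deleted. None of the 4 measured genes passed the test over both sets (limma with Benjamini-Hochberg adjustment over all genes, adjusted p under 0.05). Of all genes 0.0% passed in that fit, and 1468 genes (4.82%) had an unadjusted p under 0.05, none of them among the 4. The differences over both sets were -0.43 (95% interval -0.90 to 0.04) for Acsl5, 0.22 (-0.07 to 0.52) for Slc27a2, -0.15 (-0.38 to 0.08) for Acsl4 and -0.03 (-0.18 to 0.11) for Acsl6. Each interval includes 0, and the widest, that of Acsl5, reaches a decrease of nearly 1 log2 unit. Exact permutation of the labels within the sets (two-sided, 36 arrangements) gave p = 0.167 for Acsl5, Acsl6 and Slc27a2 and p = 0.278 for Acsl4. That test cannot go below 0.0556 with these numbers of arrays.

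Acsl5 (gene 433256) had the largest difference of the 4 measured genes, in replicates 3 and 4. Its log2 values were 13.99 and 13.89 in KO replicates 3 and 4, against 14.48 and 15.10 in WT replicates 3 and 4. Both KO arrays lay below both WT arrays, and the KO arrays were 0.10 apart while the WT arrays were 0.62 apart. The difference was -0.85 (SE 0.20, 95% interval -1.32 to -0.37), a level 1.80-fold lower in KO, with an unadjusted p of 0.00401 and an adjusted p of 0.135 in limma. That SE is pooled over both sets. Fitted to the 4 arrays of this set alone, limma gave an unadjusted p of 0.0125 and an adjusted p of 0.247. Among all genes, 1 (0.00329%) passed in this set, Dbp, which is named only because it was the single gene, and 4579 (15.0%) had an unadjusted p under 0.05. WT replicate 4 set much of the size, since the difference was -0.54 without it and -1.16 without WT replicate 3.

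In replicates 1 and 2 the values of Acsl5 were 13.76 and 13.75 in KO, against 13.66 and 13.88 in WT. The KO values lay between the WT values, and the difference was -0.02 (SE 0.20, 95% interval -0.49 to 0.46). No gene passed in this set (0.0%), and 2358 genes (7.75%) had an unadjusted p under 0.05. The contrast of one set with the other gave -0.83 for Acsl5 (SE 0.28, 95% interval -1.50 to -0.16), with an unadjusted p of 0.0221 and an adjusted p of 0.231 in limma. In that test 151 of all genes (0.496%) passed and 4529 (14.9%) had an unadjusted p under 0.05. A difference between the sets in the response of Acsl5 was therefore not shown after adjustment.

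A second probe set of Acsl5, with a lower mean, read 6.32 and 5.78 in KO replicates 3 and 4, against 6.07 and 6.04 in WT replicates 3 and 4. There the groups overlapped, and the difference was -0.01. In replicates 1 and 2 it read 4.28 and 4.51 in KO, against 4.47 and 4.90 in WT, a difference of -0.29 with overlapping groups. The probe sets of Acsl5 thus disagreed in replicates 3 and 4, and with their mean per array the difference there was -0.43. With quantile normalization over all arrays it was -1.28.

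General adipocyte markers also read mostly lower in KO in replicates 3 and 4, and none passed. The mean of 11 general adipocyte markers was 14.70 and 14.48 in KO replicates 3 and 4, against 15.18 and 15.06 in WT replicates 3 and 4, and 10 of the 11 had a difference below 0 (median -0.28). Of these 11 markers, 4 (Dgat2, Fabp4, Lipe and Pparg) also belong to the lists of lipid genes described further on. In replicates 1 and 2 the mean was 13.56 and 13.86 in KO, against 13.85 and 13.83 in WT, and 7 of the 11 were below 0. Brown adipocyte markers averaged 13.34 and 12.89 in KO replicates 3 and 4, against 13.02 and 13.16 in WT, with a median difference of -0.01. Skeletal muscle markers had a difference below 0 for all 18 genes there (median -1.63), with overlapping groups. In whole tissue, fewer cells of a type and less RNA per cell cannot be told apart, and the part of these markers in the level of Acsl5 was not tested.

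Slc27a2 (gene 26458) had the opposite direction. Its log2 values were 16.81 and 16.32 in KO replicates 3 and 4, against 16.22 and 16.22 in WT replicates 3 and 4. Both KO arrays lay above both WT arrays, but the KO arrays were 0.49 apart, more than the difference of 0.35 (SE 0.18, 95% interval -0.07 to 0.76, limma adjusted p = 0.415). KO replicate 3 carried the difference, which was 0.10 without it and 0.59 without KO replicate 4. In these 4 arrays the liver transcript albumin (Alb) read 5.23 and 4.99 in KO, against 5.11 and 4.79 in WT, and 2 or 3 of 16 liver markers were above background.

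In replicates 1 and 2, Slc27a2 read 17.66 and 17.66 in KO, against 17.70 and 17.42 in WT, a difference of 0.09 (SE 0.18, 95% interval -0.32 to 0.51). The groups overlapped. Albumin read 19.23 and 15.81 on the same KO arrays, against 14.51 and 10.03 on the WT arrays, and the part of liver RNA in the level of Slc27a2 was not tested. The KO arrays held the same value to 4 decimals. Such ties were common among strong signals of this set: of 780 genes above a log2 value of 14 on KO replicate 1, 112 (14.4%) had exactly the same value on KO replicate 2. Between any 2 arrays of replicates 3 and 4 the share was at most 0.1%. Cidea, a lipid droplet protein of brown adipocytes, read 18.76 on all 4 arrays of replicates 1 and 2. What such shared values left of a difference in Slc27a2 was not tested. The difference between the sets was 0.25 (SE 0.25, 95% interval -0.34 to 0.84, limma adjusted p = 0.734). It was 0.0075 without KO replicate 3 and 0.50 without KO replicate 4.

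Acsl4 (gene 50790) read 8.61 and 8.55 in KO replicates 1 and 2, against 8.92 and 8.65 in WT replicates 1 and 2. Both KO arrays were below both WT arrays, by -0.20 on average (SE 0.14, 95% interval -0.55 to 0.14, limma adjusted p = 0.875). Its values were 9.94 and 9.84 in KO replicates 3 and 4, against 9.83 and 10.14 in WT replicates 3 and 4. Here the groups overlapped and the difference was -0.10 (95% interval -0.44 to 0.25, limma adjusted p = 0.833). The difference between the sets was 0.11 (95% interval -0.38 to 0.59).

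Acsl6 (gene 216739) was not above background on any of the 8 arrays. It read 3.72 and 3.73 in KO replicates 1 and 2, against 3.78 and 3.68 in WT replicates 1 and 2, and 4.07 and 4.06 in KO replicates 3 and 4, against 4.12 and 4.12 in WT replicates 3 and 4. These values lay between the 66.6th and the 92.5th percentile of the olfactory receptor genes. The KO arrays were below the WT arrays in replicates 3 and 4 by -0.06, with no fold change to be read at this level.

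For Acsl3 (gene 74205) the single probe set was annotated with Acsl3 and Utp14b, whose yeast counterpart acts in ribosomal RNA processing and whose locus overlaps that of Acsl3 in RefSeq. Its signal belongs to neither gene alone, and it was not part of the fit across genes. It read 8.09 and 8.26 in KO replicates 1 and 2, against 7.89 and 7.41 in WT replicates 1 and 2. In replicates 3 and 4 it read 9.56 and 8.63 in KO, against 10.32 and 10.53 in WT. The KO arrays were above the WT arrays by 0.52 in the first set and below them by -1.33 in the second, without overlap in either. The arrays of the KO group in the second set were 0.92 apart, and the mean over both sets was -0.40 (exact permutation within the sets, two-sided, p = 0.5).

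**Figure D2:**
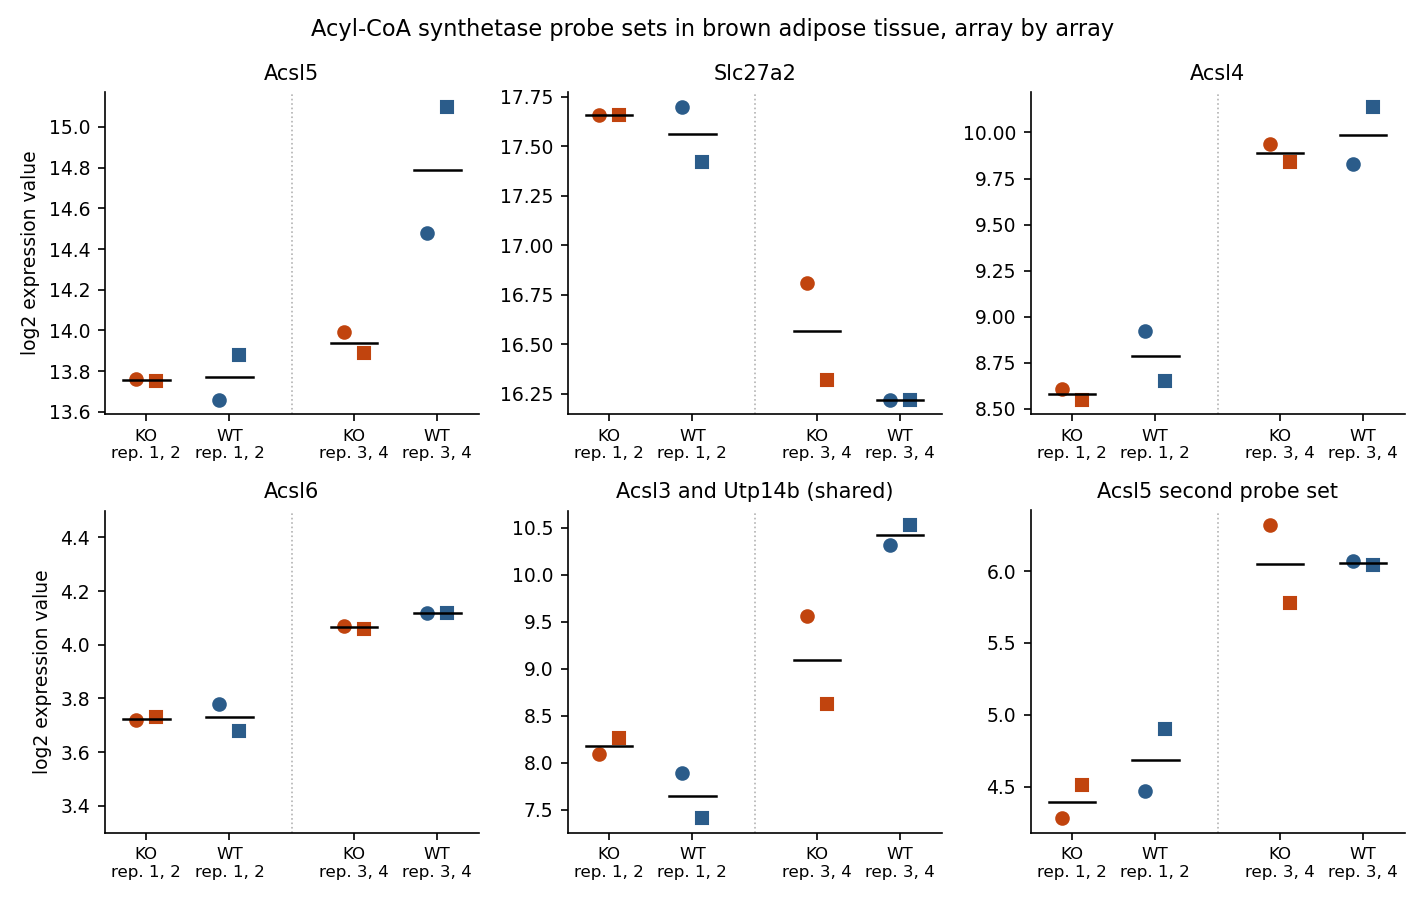
Log2 value of each probe set on each array, KO in orange left of WT in blue, with circles for replicates 1 and 3, squares for replicates 2 and 4 and a line at the mean of the 2 arrays. Acsl5 separated the groups in replicates 3 and 4 (13.89 and 13.99 in KO, 14.48 and 15.10 in WT) and not in replicates 1 and 2, and its second probe set separated them in neither.

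Counted by array order, 1 of the 4 measured genes (Acsl4) had both KO arrays below both WT arrays in replicates 1 and 2 and none had them above, where 19.4% and 18.9% of all genes did. In replicates 3 and 4, Acsl5 and Acsl6 had both KO arrays below and Slc27a2 had them above, where 19.1% and 23.9% of all genes did. With 2 arrays a group, such an order was thus common in the whole table. The median difference of the 4 genes was -0.01 in replicates 1 and 2 and -0.08 in replicates 3 and 4, beside 0.00 and 0.02 over all genes.

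A further 18 acyl-CoA synthetase genes were all measured and none passed in any of the tests. Their median difference was -0.01 in each set, with 9 above and 9 below 0 in both. In replicates 3 and 4, 4 had both KO arrays below and 4 had both above the WT arrays, where 19.1% and 23.9% of all genes did. An unadjusted p under 0.05 was found for 5 of the 18 there (15.0% of all genes), for 1 in replicates 1 and 2 (7.75%), for 1 over both sets (4.82%) and for 4 in the difference between the sets (14.9%).

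Acss2, the acetyl-CoA synthetase of cytosol and nucleus, was the single one with an unadjusted p under 0.05 over both sets. It read 7.48, 7.46, 8.81 and 9.12 in KO replicates 1 to 4, against 7.90, 7.79, 9.27 and 9.85 in WT replicates 1 to 4. Both KO arrays lay below both WT arrays in each set. The difference over both sets was -0.48 (SE 0.14, 95% interval -0.81 to -0.16, unadjusted p = 0.00974, limma adjusted p = 0.984), with -0.37 in replicates 1 and 2 and -0.59 in replicates 3 and 4.

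Acss1, the acetyl-CoA synthetase of mitochondria, went in opposite directions in the sets. Its values were 12.70 and 13.26 in KO replicates 1 and 2, against 13.52 and 13.84 in WT replicates 1 and 2, and 15.20 and 15.56 in KO replicates 3 and 4, against 14.53 and 14.80 in WT replicates 3 and 4. The difference was -0.70 in the first set and 0.72 in the second, without overlap in either. The contrast of one set with the other gave 1.42 (SE 0.33, limma adjusted p = 0.111).

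Among the medium-chain enzymes, Acsm3 read 15.87 and 15.68 in KO replicates 3 and 4, against 14.48 and 15.09 in WT replicates 3 and 4. The difference was 0.99 (SE 0.26, limma adjusted p = 0.160), and -0.13 in replicates 1 and 2. Acsm5 read 6.52 and 7.75 in KO replicates 3 and 4, against 6.29 and 6.49 in WT, a difference of 0.74 with KO arrays 1.22 apart. Acsm1, Acsm2 and Acsm4 read between 3.02 and 4.23 on all arrays.

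The fatty acid transport proteins related to Slc27a2 all had differences below 0 in replicates 3 and 4, where 14147 of 30426 genes did, and none passed. In replicates 1 and 2 the differences were -0.12 for Slc27a1, 0.01 for Slc27a3, 0.05 for Slc27a4, 0.51 for Slc27a5 and -0.03 for Slc27a6. Slc27a1, the transporter typical of muscle and brown fat, read 12.81 and 13.25 in KO replicates 3 and 4, against 13.49 and 13.46 in WT replicates 3 and 4, a difference of -0.45 (SE 0.22, limma adjusted p = 0.411). Slc27a4, a widely expressed family member, read 6.41 and 6.42 in KO, against 6.83 and 6.74 in WT, a difference of -0.37 (SE 0.13, limma adjusted p = 0.249). For Slc27a3 the difference there was -0.12, and for Slc27a5 and Slc27a6, which read between 3.47 and 4.58 on all arrays and were not above background in this set, -0.09 and -0.04. Slc27a5 is a bile acid and very-long-chain synthetase known from liver. Within replicates 1 and 2 its highest value, 4.58, was that of KO replicate 1, where albumin was also highest (19.23). WT replicate 2 was lowest for both, at 3.49 and 10.03. For albumin, KO replicate 2 (15.81) came before WT replicate 1 (14.51). For Slc27a5 that order was reversed, with 3.80 and 3.88. The part of liver RNA in the level of Slc27a5 was not tested.

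Of the other synthetases, Acsf3, the mitochondrial malonyl-CoA synthetase, had differences of 0.33 in replicates 1 and 2 and -0.58 in replicates 3 and 4. Aacs, the acetoacetyl-CoA synthetase of the cytosol, had -0.33 and 0.62 in the same order. For Acsf2, Acss3, Acsbg1 and Acsbg2, the last of which was not above background on any array, the size of the difference was at most 0.11 in either set.

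**Figure D3:**
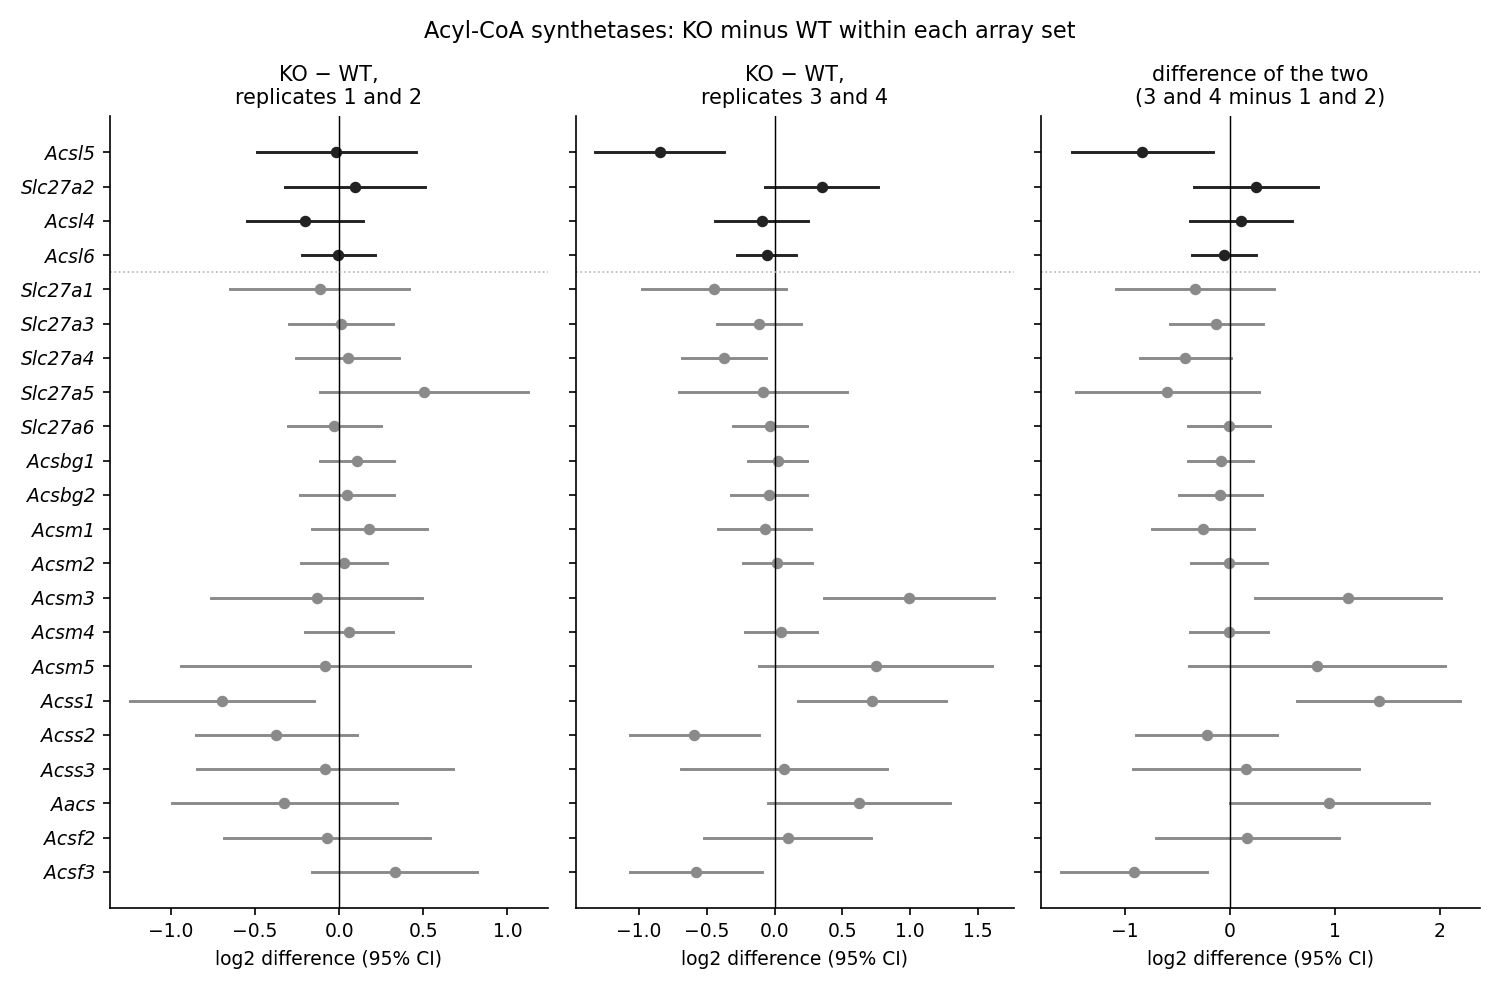
KO minus WT (log2, point) with its 95% interval (line) for Acsl5, Slc27a2, Acsl4 and Acsl6 in black and for 18 other synthetase genes in grey, within replicates 1 and 2 (left), within replicates 3 and 4 (middle) and as the difference between these (right). Acsl5 stood at -0.85 in the middle panel and at -0.02 in the left one, and no gene shown passed after adjustment over all genes.

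Genes that remove, carry or use acyl-CoA were read in the same way, as 8 further lists. None of their genes passed over both sets or within a set. A single one, Mgll, passed in the difference between the sets, where 0.496% of all genes did. An order without overlap in both sets, but in opposite directions, was found for 24 of the 123 measured genes of all 10 lists (19.5%), beside 12.7% of all genes. The latter share includes genes at background, and none was taken among genes above the median level alone. Values below are medians of KO minus WT within replicates 1 and 2 and then within replicates 3 and 4, beside 0.00 and 0.02 over all genes.

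The 14 genes of mitochondrial entry and oxidation had a median of 0.12 in replicates 1 and 2, with 13 of 14 above 0, and of -0.31 in replicates 3 and 4, with all 14 below 0. Both KO arrays lay below both WT arrays for 11 of the 14 in replicates 3 and 4, where 19.1% of all genes did. An unadjusted p under 0.05 was found for 7, where 15.0% of all genes had one. All genes include many at background, and among the 15213 genes above the median level, fitted alone, 3171 had such a p. Crat, carnitine acetyltransferase, read 15.29 and 14.96 in KO replicates 3 and 4, against 15.69 and 15.63 in WT, a difference of -0.54 (limma adjusted p = 0.158). Decr1, the 2,4-dienoyl-CoA reductase that handles unsaturated fatty acids, read 16.71 and 16.70 in KO, against 17.07 and 17.02 in WT, a difference of -0.34 (limma adjusted p = 0.218). Acaa2, a thiolase, had a difference of -0.14 there. The marker medians in replicates 3 and 4 were -0.28 for all adipocytes (10 of 11 below 0), -0.34 for fibroblasts and preadipocytes (9 of 10 below 0, and 7 with both KO arrays below both WT arrays) and -1.63 for skeletal muscle (18 of 18 below 0, and 0 with such an order). In replicates 1 and 2 the liver markers had a median of 3.03, with 15 of 16 above 0 and 11 with both KO arrays above both WT arrays. The part of these markers in the values of the list was not tested.

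The 13 measured genes of peroxisomal oxidation, where very long chains activated by SLC27A2 are shortened, had medians of 0.18 and -0.06. Abcd3, a transporter of acyl-CoA into peroxisomes, read 15.03 and 14.95 in KO replicates 3 and 4, against 15.86 and 15.74 in WT replicates 3 and 4. The difference was -0.81 (SE 0.10, limma adjusted p = 0.0812), against 0.18 in replicates 1 and 2. Scp2, a sterol carrier with thiolase activity, had 0.30 in replicates 3 and 4. Acox2, the branched-chain oxidase, had -0.06 there and was not above background in that set.

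The 14 acyl-CoA thioesterases, which reverse the synthetase reaction, had medians of -0.09 and -0.10. Acot3, a peroxisomal thioesterase, read 4.75 and 4.56 in KO replicates 1 and 2, against 5.83 and 5.51 in WT replicates 1 and 2, and its difference was -1.01 there and 0.15 in replicates 3 and 4. For Acot4 and Acot8, peroxisomal as well, the values in replicates 3 and 4 were -0.21 and -0.48.

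The 12 genes of acyl-CoA and fatty acid binding had medians of 0.13 and -0.10, with 10 of 12 above 0 in replicates 1 and 2 and 8 of 12 below 0 in replicates 3 and 4. Acbd4, which carries an acyl-CoA binding domain, had -0.67 in replicates 3 and 4 (limma adjusted p = 0.167). The fatty acid binding protein gene Fabp5 had 0.33 there, and Fabp7, above background on 3 of 8 arrays, 0.21. Fabp3, named after its values were seen, had 0.67 in replicates 1 and 2 and -1.07 in replicates 3 and 4 (limma adjusted p = 0.158 in the latter).

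The 9 genes of fatty acid supply, which deliver the substrate of the synthetases, had medians of 0.06 and -0.08. Mgll, the lipase of monoglycerides, read 12.00 and 12.04 in KO replicates 1 and 2, against 11.25 and 11.35 in WT replicates 1 and 2. In replicates 3 and 4 it read 12.81 and 12.32 in KO, against 14.11 and 13.70 in WT. Its KO arrays were above the WT arrays in the first set and below them in the second. The difference between the sets was -2.06 (SE 0.28, limma adjusted p = 0.0468), made of 0.72 and -1.34. The call held in 3 of 13 alternatives and was lost with median centring, with eBayes with trend and robust, and without any 1 of the 8 arrays, where the adjusted p in limma was 0.0518 to 0.169. Of the 3 that kept the call of Mgll, the mean of probe sets and the filter on low values left its difference unchanged. Only quantile normalization changed it, to -2.40. Lipe, hormone-sensitive lipase, had -0.73 in replicates 3 and 4 and Abhd5, the activator of Pnpla2, -0.08, and neither passed. G0s2, an inhibitor of Pnpla2, read 11.65 and 8.76 in KO replicates 3 and 4, against 12.25 and 11.98 in WT, and its difference of -1.91 was -0.46 without KO replicate 4.

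The 16 glycerolipid acyltransferases and lipins, which use acyl-CoA for triglyceride, had medians of -0.04 and -0.15. Lpin1, a phosphatidate phosphatase, had 0.75 and 0.87, Dgat2, of the last step to triglyceride, -0.25 and -0.54, and Gpam, of the first acylation, -0.35 and -0.27. Without KO replicate 4 the second value was 0.16 for Lpin1 and -0.08 for Dgat2. For the 13 genes of phospholipid acyl remodelling the medians were 0.09 and -0.07, with -0.08 and -0.31 for Mboat7 and -0.08 and -0.17 for Lpcat1, both acyltransferases of lysophospholipids. Mboat1, another of them, was not above background on any array.

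The 10 measured transcriptional regulators had medians of -0.13 and -0.25. Ppara, the fatty acid receptor that drives oxidation genes, read 13.76 and 11.94 in KO replicates 3 and 4, against 14.26 and 13.92 in WT, with KO arrays 1.82 apart. Its difference was -1.24 (limma adjusted p = 0.330). Esrrg, an orphan receptor of oxidative tissues, had -0.75 and -0.47, and Rxrb, a partner of such receptors, -0.04 and -0.23.

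**Figure D4:**
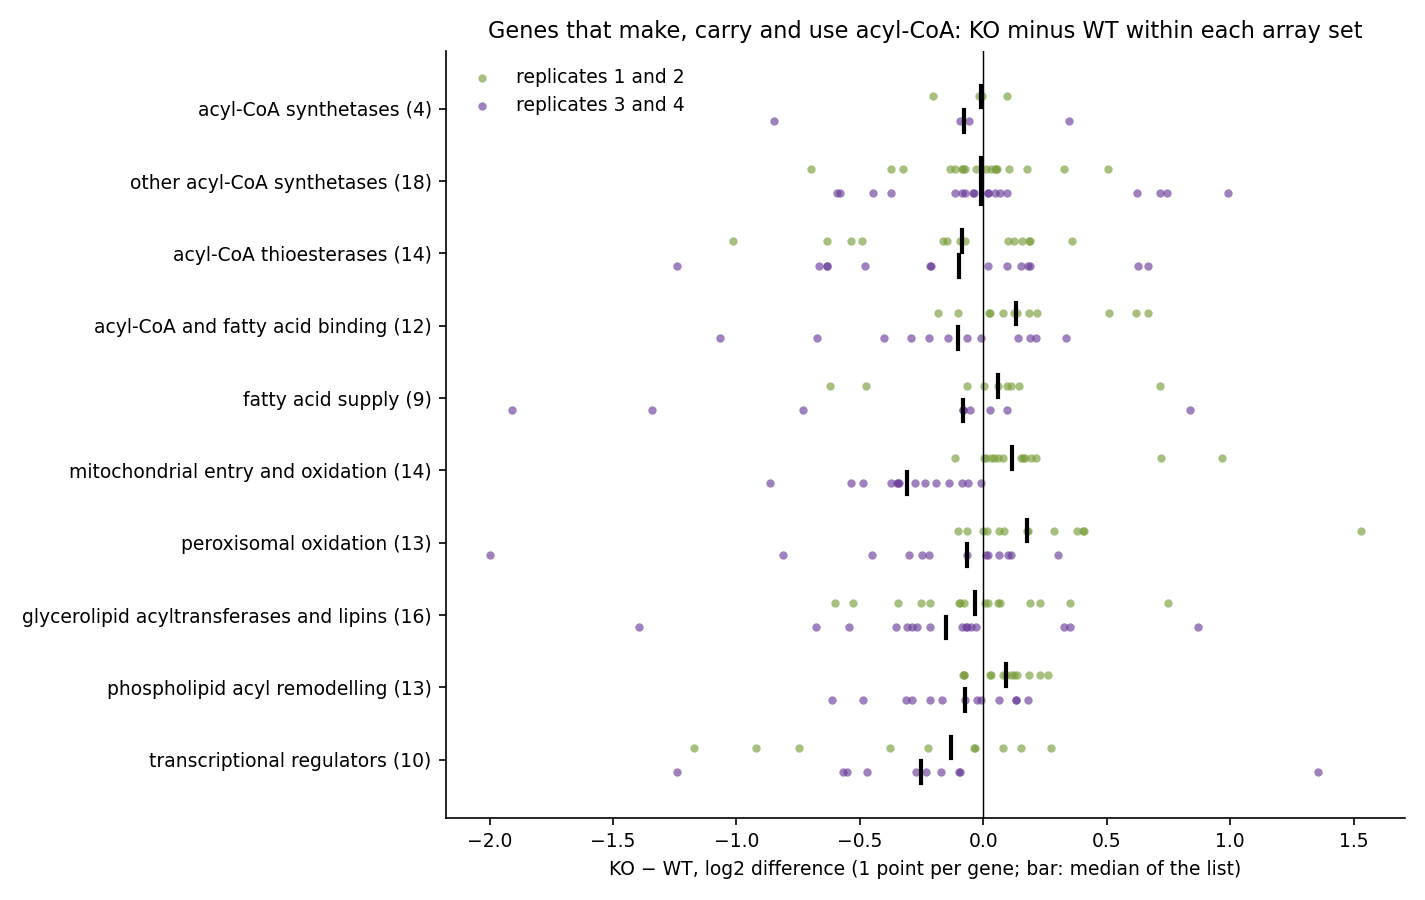
KO minus WT (log2) of each measured gene, 1 point per gene and a bar at the median of its list, within replicates 1 and 2 (green, upper row) and within replicates 3 and 4 (purple, lower row). Numbers of genes stand in brackets. The genes of mitochondrial entry and oxidation had a median of 0.12 in the upper row and lay below 0 throughout in the lower row (median -0.31).

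The genes whose profile was most like that of each measured synthetase were taken by Pearson's r over the 8 arrays after the mean of each set was subtracted, among 11294 genes above the median level. These are descriptions, since all values share the arrays and their normalization. Most like Acsl5 were Msmo1, an enzyme of cholesterol synthesis (r = 0.98), Wdr6 (0.98) and Papolb, a poly(A) polymerase (0.98). Papolb was above background in WT replicates 3 and 4 alone. Msmo1 read 6.31 and 6.00 in KO replicates 3 and 4, against 7.10 and 8.10 in WT replicates 3 and 4. WT replicate 4 was the highest array for Acsl5 and for all of these genes. Most like Slc27a2 were Ralgps2, the histone deacetylase gene Hdac2 and Thop1, a peptidase (r = 0.97, 0.96 and 0.96). Acsl4 was most like Tradd, Exoc4 and Anapc11 (0.97, 0.97 and 0.95), and Acsl6, itself not above background, most like Acbd5, Utp6 and Siae (0.97, 0.97 and 0.96).

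**Figure D5:**
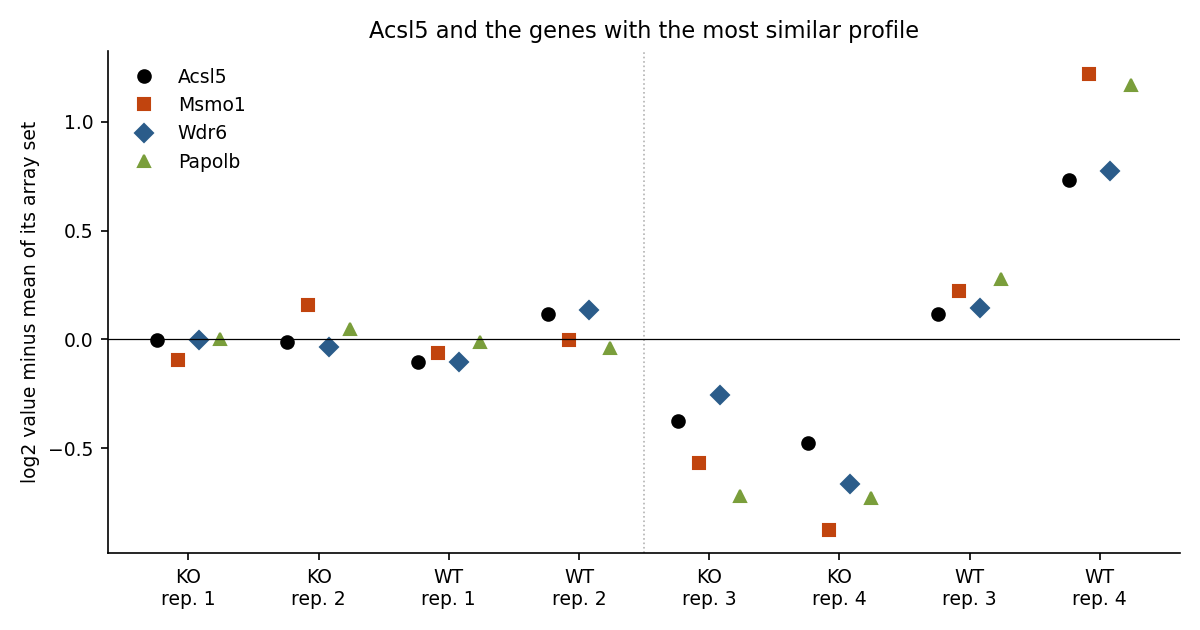
Log2 value of Acsl5, Msmo1, Wdr6 and Papolb on each array minus the mean of that gene over the 4 arrays of the set. In replicates 3 and 4 the KO arrays lay below 0 and the WT arrays above 0 for all of these genes, with WT replicate 4 the highest, and in replicates 1 and 2 all stayed near 0.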

How the data were processed

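Total RNA of brown fat was hybridized to 1 Affymetrix array per mouse, 8 in all. The deposited values are log2 expression values that the authors made by RMA in Affymetrix Expression Console, per the labels; no version, annotation release or build is named there. The design text names an array type with fewer probe sets than the 72688 in the table, so the type is not settled. The platform annotation gave 1 gene to 30876, several genes to 1874 and none to 33206 of the 65956 non-control probe sets. Gene identifiers of 30575 of the 30876 matched a RefSeq table, which gave the names (30426 genes, 353 with more than 1 probe set).

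Groups and replicate numbers came from the titles. The fits used limma 3.58.1 (R 4.3.3; lmFit, eBayes, no filter, Benjamini-Hochberg over all genes, threshold 0.05): KO minus WT with the set as a term, and 4 cells (group within set) for the difference in each set and between sets. They were tested on simulated data with independent noise per gene and array. That simulation held no array effects shared between genes within a set, so it cannot speak to those seen here. Differences within a set rest on 2 arrays a group. Their SE is pooled over the 4 cells, so the spread of one set enters the p-values of the other. Signal was judged against 1082 olfactory receptor genes (medians 3.26 to 3.85). The number of arrays limits the precision.

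Members, gene lists (10 of pathways, 9 of cell types) and tests were chosen with earlier results of these data known. All synthetases, Hilpda and, from each other list, the 3 genes with the smallest unadjusted p over both sets and any that passed were named, with the 3 genes most like each member, passing over predicted genes. For further cell type lists, the medians of KO minus WT in replicates 1 and 2 and in replicates 3 and 4 were 0.07 and 0.24 for macrophages (12 genes), -0.05 and 0.12 for endothelium (9), 0.02 and -0.34 for fibroblasts and preadipocytes (10), 0.03 and -0.09 for nerve and Schwann cells (9) and -0.04 and 0.06 for erythroid cells (4). Alternatives were a replicate block, no set term, other normalizations, eBayes with trend and robust, a filter on low values, the mean of probe sets and leaving out each array.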

Additional observations from a re-analysis of the deposited data

Results flagged for a closer look

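In 96 groups of 4 arrays (48 synthetase and related genes in KO and in WT), 3 held an array far from the other 3 by Dixon's criterion. Chance flags about 1 in 20 groups without structure, but these groups join both array sets, whose shift in scale can hide a stray array, so their number is not to be read against that rate. These were Acss3, low at 15.17 in KO replicate 1, G0s2, low at 9.59 in WT replicate 2, and Lpin1, high at 16.91 in KO replicate 4. The liver marker mean was 12.05 on KO replicate 1, 6.38 on WT replicate 2 and 5.03 on KO replicate 4. Its part in the flagged values was not tested.

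Among the 47 genes named by rule, the difference between KO and WT had opposite signs in the 2 sets, without overlap in either, for Mgll, Abcd3 and Acss1. This is 6.38% of the 47, beside 12.7% of all genes. Outside the synthetases, genes were named mainly by their unadjusted p over both sets, where opposite signs cancel. These shares therefore cannot be compared. Over all 123 list genes 24 (19.5%) had this pattern, while the share of all genes includes those at background. Among them were Abcd2, the other peroxisomal transporter, with -3.53 between the sets (limma adjusted p = 0.0543), and Cpt2, with -1.59 (limma adjusted p = 0.0844). Both are named after their values were seen. In the contrast of one set with the other, 0.496% of all genes passed. That contrast gave -2.06 for Mgll (limma adjusted p = 0.0468), -0.99 for Abcd3 (limma adjusted p = 0.052) and 1.42 for Acss1 (limma adjusted p = 0.111). For Mgll alone this passed, and it was lost in 10 of 13 alternatives, among them median centring, eBayes with trend and robust, and each of the 8 arrays left out (adjusted p in limma 0.0518 to 0.169). Liver markers were above background in replicates 1 and 2 and mostly not in replicates 3 and 4, and their part in these differences was not tested.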

How the results depend on the processing

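Over 220 alternative values of the 4 measured genes, 210 kept their sign and stayed short of the threshold and 10 changed sign, all of them small differences. Many of the 210 could not have changed sign. Leaving out an array of the other set does not alter a difference within a set. Neither do eBayes with trend and robust or a filter on low values, nor the mean of probe sets for a gene with 1 probe set. The lowest adjusted p of any alternative was 0.0677, for Acsl5 between the sets with quantile normalization. That normalization gave 0.14 for Acsl5 in replicates 1 and 2, and -0.051 for Acsl4 and 0.0005 for Acsl6 between the sets. Leaving out 1 array at a time gave -0.253 to 0.0605 for Acsl4 in replicates 3 and 4 and -0.0491 to 0.265 between the sets, and in replicates 1 and 2 -0.127 to 0.0941 for Acsl5, -0.0565 to 0.047 for Acsl6 and -0.0453 to 0.234 for Slc27a2. Where 1 array was left in a cell, it was assumed to vary like the others. Over both sets 0 genes passed (1 without KO replicate 3; range 0 to 1), and in replicates 1 and 2 also 0 (1 without KO replicate 1, 14 without KO replicate 2; range 0 to 14). In replicates 3 and 4, 1 gene passed, 0 with quantile normalization or with the 4 arrays alone, 13 among genes above the median level, and 0 to 10 with 1 array left out. Between the sets 151 passed (115 higher, 36 lower), 155 with quantile normalization (82 higher, 73 lower), 81 with median centring (58 higher, 23 lower), 374 among genes above the median level, 0 with eBayes with trend and robust together, and 0 to 10 with 1 array left out. The causes were not tested. Between the sets Slc27a2 had 0.0075 to 0.498 with 1 array left out. In an alternative added after the data were seen, the call of Mgll was kept in 3 of 13 settings. Of these, only quantile normalization changed its difference. With the replicate number as a block 0 genes passed (1219 at an unadjusted p under 0.05). With the set removed, same-numbered arrays correlated at 0.108 in replicates 1 and 2 and at -0.0897 in replicates 3 and 4. With 2 arrays a group, each set gives a single such value, so these cannot decide whether arrays are paired by number. Leaving out each array, also added then, changed the sign of the list median at least once for 7 of 18 medians. The median kept its sign in both sets for peroxisomal oxidation, phospholipid acyl remodelling and transcriptional regulators. It also did so for mitochondrial entry and oxidation (0.03 to 0.18 in replicates 1 and 2, -0.37 to -0.25 in replicates 3 and 4).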
